A study of Canis lupus familiaris with 5 samples.

Results

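A small group of endothelial nuclei in canine cephalic vein, marked by DACH1, NR5A2, BTNL9, NOSTRIN and ARHGEF28, was described across 5 single-nucleus libraries. A nucleus belonged to the group when it held at least 3 unique transcript counts (UMIs) over these 5 genes, with 2 or more of them detected. That sum also had to exceed the UMIs over MYRIP, ALDH1A2 and PALMD (venous endothelium), over PROX1, MMRN1, FLT4 and RELN (lymphatic endothelium) and over LAMA2, SCARA5, SVEP1 and DCN (fibroblasts). These genes and limits came from the measured values themselves, so that the members' levels of the 5 genes are a description and not a finding. Of 6868 nuclei with at least 100 detected features, 108 met the rule; they are called DACH1/NR5A2 nuclei, or members, below. The same rule with the lists exchanged gave 615 venous, 238 lymphatic and 1184 fibroblast nuclei for comparison.

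The study compared vein at the steps of making a carotid bypass graft. The graft group was 1 library of vein taken 24 h after it had been joined to the carotid artery of dog 1. The distended group was 2 libraries, from dogs 1 and 2, taken after the vein had been filled under closed outflow with saline that held papaverine and bivalirudin, a step that with harvest lasted about 30 min. The control group was 2 libraries of undistended vein from the same 2 dogs. The graft had itself been distended, and its dog also received bivalirudin systemically; the samples are labelled male and the animals are described as anaesthetised mongrels of 25 kg, with no age in the labels used here. Each group thus rests on 1 or 2 animals, and nuclei of a library are not replicates of a condition.

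Large veins carry small vessels of their own in the outer wall, the vasa vasorum, besides the endothelium that lines the lumen. DACH1 is a transcription cofactor that in mouse promotes arterial fate in coronary endothelium, and NR5A2 is a nuclear receptor best known for sterol and bile acid genes. BTNL9, a butyrophilin-like membrane protein, is used as a capillary endothelial marker in human and mouse tissue. NOSTRIN binds and moves endothelial nitric oxide synthase, and ARHGEF28 is a guanine nucleotide exchange factor.

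The DACH1/NR5A2 nuclei made up 72 of 2705 nuclei in the graft, which is 2.66% (exact 95% interval 2.09 to 3.34%). They made up 30 of 2108 nuclei in distended dog 1, 1.42% (0.962 to 2.03%), and 5 of 241 in distended dog 2, 2.07% (0.677 to 4.77%). In the controls they were 1 of 773 nuclei in dog 1, 0.129% (0.00328 to 0.719%), and 0 of 1041 in dog 2, with an exact upper limit of 0.354%. The graft and both distended libraries lay above both controls. Set against venous nuclei alone, they were 27.5% of 262 nuclei in the graft, 12.4% of 241 and 55.6% of 9 in distended dogs 1 and 2, and 0.885% of 113 and 0% of 98 in control dogs 1 and 2. The intervals and limits cover counting error only, and fewer such nuclei and less RNA per nucleus cannot be told apart in these shares.

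Depth over all nuclei moved with these shares. The median nucleus held 2350 UMIs in the graft, 545.5 and 498 in distended dogs 1 and 2, and 421 and 274 in control dogs 1 and 2, without 4 unnamed-locus features that took 3.00%, 39.8%, 28.0%, 71.1% and 65.4% of the UMIs in that order. Each nucleus was then thinned to 200 UMIs, with 1 UMI of any of the 5 genes enough and the need for 2 genes dropped. This looser limit took 2.92% of nuclei in the graft, 2.25% and 5.02% in the distended libraries and 3.81% and 0.668% in the controls. Control dog 1 then lay above the graft and above distended dog 1. Before thinning, all its nuclei held 1 UMI of NR5A2 and 6 of BTNL9, against 50 of DACH1, 51 of NOSTRIN and 39 of ARHGEF28. The nuclei taken by the looser limit need not be the same group as the members. At 200 UMIs and the original limit of 3, only 2 nuclei were left, 1 in the graft and 1 in control dog 1. Thinning left out 1, 61, 2, 116 and 292 nuclei that were too shallow, in the same order of libraries. Venous nuclei, which also needed 3 UMIs of their list, had a median of 6559.5 UMIs in the graft. Their median was 912 and 1670 in distended dogs 1 and 2, and 887 and 452 in control dogs 1 and 2. Their depth thus differed little between control and distended vein of dog 1. A higher share after distension or grafting and greater depth cannot be told apart here, and the part of depth within endothelium was not tested.

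**Figure D1:**
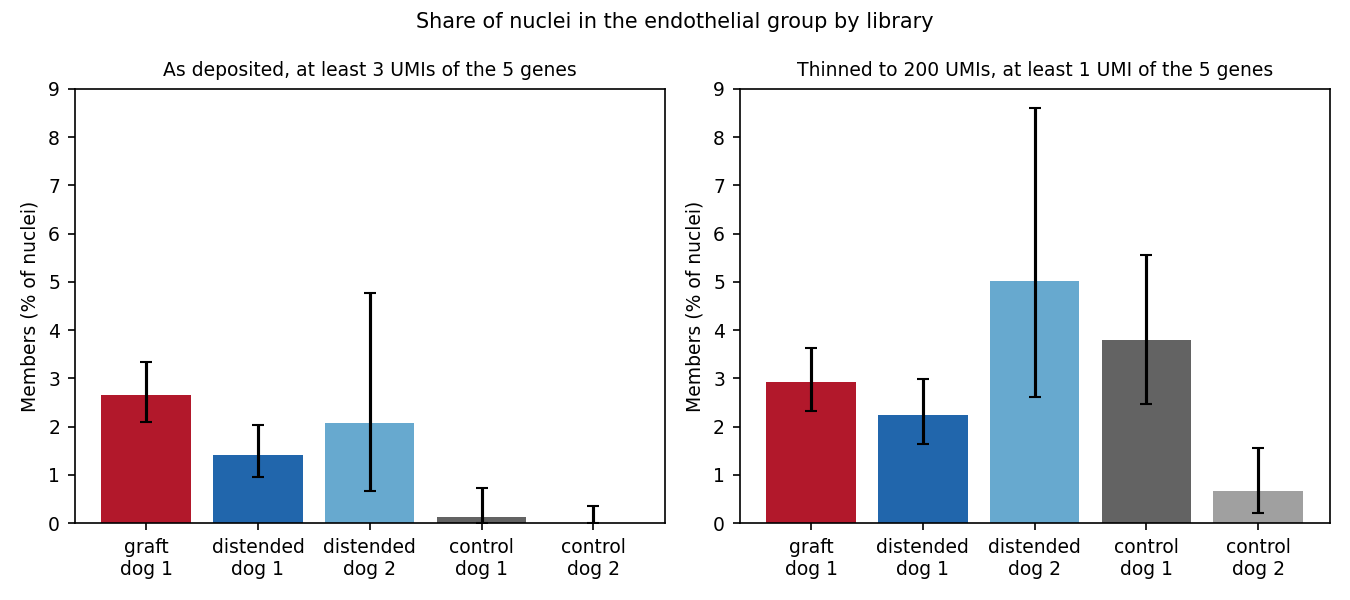
Share of nuclei in the group (percent, bars) with exact 95% binomial intervals in the graft, the distended veins and the control veins, at the deposited depth (left) and after thinning to 200 UMIs with 1 UMI required (right). The graft stands at 2.66% and the controls at 0.129% and 0% on the left; on the right control dog 1 stands at 3.81%, above the graft at 2.92%.

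The 5 defining genes were not spread alike over the libraries. ARHGEF28 had 245 UMIs in 69 of the 72 graft members, DACH1 had 182 in 48, NR5A2 had 97 in 42, NOSTRIN had 20 in 19 and BTNL9 had 1 in 1. In the 30 members of distended dog 1, ARHGEF28 had 66 UMIs in 16 nuclei, DACH1 36 in 16, NR5A2 30 in 18, NOSTRIN 87 in 24 and BTNL9 52 in 17. The 5 members of distended dog 2 held 8, 3, 1, 7 and 1 UMIs of the 5 genes in that order, and the lone control member held 5 UMIs of BTNL9 and 1 of NOSTRIN. BTNL9 had 2 UMIs in all 2705 graft nuclei, against 61 in distended dog 1, where 52 of the 61 lay in the group. NR5A2 lay mainly in the group as well, with 97 of 160 UMIs in the graft and 30 of 34 in distended dog 1, and it had 1 and 0 UMIs in the whole of control dogs 1 and 2.

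Transcripts released from other nuclei can give a UMI in a nucleus that does not express a gene. NR5A2 was detected in 3.68% of venous and 1.67% of fibroblast nuclei of the graft, and in 0% of venous and 0.239% of fibroblast nuclei of distended dog 1, against 58.3% and 60.0% of the members. ARHGEF28 was in 45.3% of graft venous nuclei, whose median depth was 6559.5 UMIs against 3480 UMIs in the members, and in 5.56% of graft fibroblast nuclei at a median of 2841.5 UMIs. It supplied 45.0% of the defining UMIs of graft members and 24.4% of those of distended members in dog 1. The median depth in distended dog 1 was 1304 UMIs in members, 912 in venous and 576 in fibroblast nuclei.

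**Figure D2:**
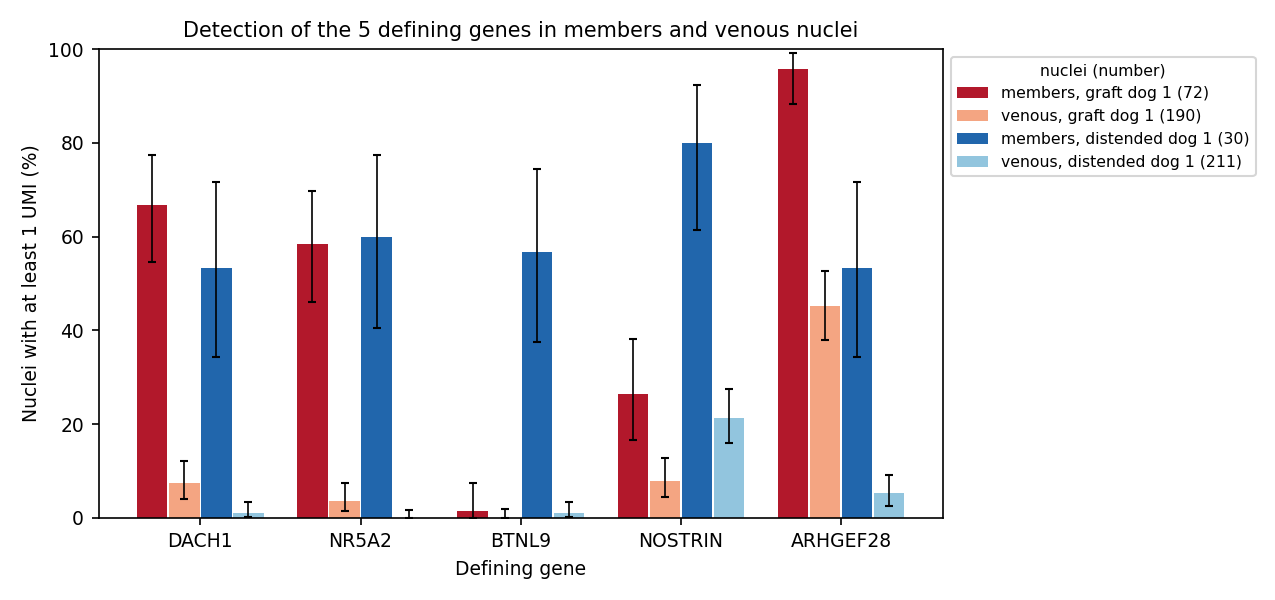
Percentage of nuclei with at least 1 UMI of each defining gene in DACH1/NR5A2 nuclei and venous nuclei of graft dog 1 and distended dog 1, with exact 95% binomial intervals. BTNL9 was detected in 56.7% of the distended members and 1.39% of the graft members, and ARHGEF28 in 95.8% of graft members and 45.3% of graft venous nuclei.

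Of the 108 members, 22 sat exactly at the limit of 3 UMIs, 17 of them in the graft. Just outside lay 25 nuclei with 2 UMIs over 2 of the genes and 52 nuclei, 48 in the graft, with 3 or more UMIs of a single gene. Another 32 nuclei reached 3 UMIs with 2 genes but had as many or more UMIs of another list, 22 of them of the venous list. In the graft 43 of the 72 members showed 2 of the 5 genes, 23 showed 3 and 6 showed 4; in distended dog 1 these numbers were 11, 7 and 12 of 30. DACH1 and ARHGEF28 were seen together in 45 of 72 graft members and in 8 of 30 members of distended dog 1. NR5A2 and NOSTRIN were seen together in 9 of 72 and in 15 of 30.

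The members were endothelial by markers outside the rule. All 20 pan-endothelial markers, among them PECAM1, VWF and CDH5, were detected in the members of both the graft and distended dog 1, and every one of the 108 members held at least 3 UMIs of this list. Its summed level was 93.3 per 10000 UMIs in graft members and 78.8 in graft venous nuclei, and 201 in distended members and 190 in distended venous nuclei of dog 1. Fibroblast nuclei had 8.48 and 6.25 per 10000 in these libraries.

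Markers of capillary endothelium were met in part. Of a list of 20, 12 were detected in graft members and 13 in members of distended dog 1, at 9.98 and 21.7 per 10000 UMIs, against 7.14 and 11.6 in venous and 9.45 and 4.73 in fibroblast nuclei of the same libraries. KIT, a receptor tyrosine kinase, had 34 UMIs in 13 graft members against 1 UMI in graft venous nuclei, and 9 UMIs in 6 members of distended dog 1 against 0 in its venous nuclei. ADGRF5, an adhesion G-protein-coupled receptor, was 1.83-fold higher in members than in venous nuclei in the graft (95% counting interval 1.30 to 2.55) and 3.56-fold higher in distended dog 1 (2.15 to 5.93). RGCC had 46 UMIs in graft members and 0 in distended members of dog 1; without 13 graft members that held 3 or more neutrophil marker UMIs, 10 were left. GPIHBP1 and LPL, which hold and supply lipoprotein lipase, and FABP4, TCF15, CD300LG and EDNRB were at 0 in members of both libraries; CA4 and CD36 were at 0 in graft members and had 2 and 7 UMIs in members of distended dog 1. PLVAP, which forms the diaphragms of fenestrated endothelium, had 38 UMIs in graft members, 32 of them in 1 nucleus, and 6 UMIs in distended members. In the graft it was 2.42-fold lower in members than in venous nuclei (1.74 to 3.47), as was SLC9A3R2 (2.42-fold, 1.27 to 5.19). Of the capillary genes with 20 or more UMIs, 2 of 9 were at least 2-fold higher (KIT and RGCC) and 2 lower in graft members. Their median log2 ratio was -0.30. In distended dog 1, 1 of 7 (ADGRF5) was higher and 0 lower, with a median of 0.08. Over all genes against venous nuclei, 5.87% were higher and 17.7% lower in the graft, with a median of -0.17. The shares over all genes in distended dog 1 were 9.93% and 26.9%, with a median of -0.26. GPIHBP1, LPL, FABP4 and other listed markers were at 0, so the group is called by its genes and not as capillary endothelium.

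Markers of other cell types were present in part. A list of 12 fibroblast markers had 217 UMIs in 48 graft members and 33 in 14 distended members of dog 1, with LUM and PI16 at 0 in both. The level was 5.81 and 4.92 per 10000 UMIs in these members, against 4.92 and 3.095 in venous nuclei of the same libraries. Macrophage markers had 82 UMIs in graft members and 5 in distended members, with C1QA, C1QB and C1QC at 0. Pericyte markers had 6 UMIs over the 72 graft members and 0 over the 30 distended members of dog 1, and MYH11, which defines smooth muscle, was at 0 in both. Of the neutrophil markers 7 of 8 were detected in graft members, with 214 UMIs in 34 nuclei (0 to 40 a nucleus) and CXCR2 at 0, while all 8 were at 0 in distended members of dog 1. The level was 5.72 per 10000 UMIs in graft members and 2.29 in graft venous nuclei. PTPRC, the leukocyte surface phosphatase, had 60 UMIs in graft members and 0 in distended members. The 13 graft members with 3 or more neutrophil marker UMIs held 189 of the 214, and their part in the graft values was not tested beyond the counts given without them.

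Set against venous nuclei of the same library, the DACH1/NR5A2 nuclei had more COL15A1, PLCB1 and LSAMP, and less SFRP1, SELENOP and APOE. Counts were summed per library and class, scaled by TMM, and given as ratios with exact 95% counting intervals; with 1 library on each side there is no test, and a 2-fold limit is used for counts of genes with 20 or more UMIs. At least 2-fold higher in both the graft and distended dog 1 were 52 of 3248 genes (1.6%), and 180 (5.54%) were at least 2-fold lower in both. These counts, like the others over all genes below, include the genes of the rule. DACH1, NR5A2, ARHGEF28, NOSTRIN and FLT4 are among the higher, and MYRIP and ALDH1A2 among the lower. Apart from FLT4, the rule itself favoured these directions. In the graft alone 5.87% of 10526 genes were higher and 17.7% lower, with a median log2 ratio of -0.17. In distended dog 1 alone 9.93% of 3304 were higher and 26.9% lower, with a median of -0.26. List counts against venous nuclei below are to be read against these shares.

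COL15A1, a collagen of basement membranes, had 180 UMIs in graft members against 353 in graft venous nuclei, and 103 against 5 in distended dog 1. It was 2.38-fold higher in graft members (1.97 to 2.85) and 61.4-fold higher in distended members (25.5 to 193); distended dog 2 had 4 UMIs in its 5 members, and control venous nuclei had 0. PLCB1, a phospholipase C that acts below G-protein-coupled receptors, was 3.09-fold higher in graft members (2.53 to 3.76) and 69.9-fold higher in distended members of dog 1 (40.3 to 133). Of its 305 UMIs in distended members, 99 came from 1 nucleus. LSAMP, a cell adhesion molecule, was 35.3-fold higher in graft members (16 to 92) and 17.3-fold higher in distended members (6.61 to 57.2). PDGFD, a platelet-derived growth factor ligand, was 17.1-fold higher (8.0 to 40.6) and 18.3-fold higher (8.16 to 48.2), with 36 of its 43 distended UMIs in 1 nucleus. PXDN, a peroxidase that crosslinks collagen IV, was 5.54-fold higher (4.24 to 7.24) in the graft and 16.4-fold higher (9.20 to 31.4) in distended dog 1. ARHGAP24, NKAIN3, TSPAN18, FGD4, TSPAN15, PRDM16, PCSK5, SNX25 and COL12A1 were also among the 15 highest by median log2 ratio. SNX25 had an interval that held 1 in the graft (1.61, 0.916 to 2.71).

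SFRP1, a secreted Wnt antagonist, had 14 UMIs in graft members against 745 in graft venous nuclei, and 0 against 226 in distended dog 1. It was 11.4-fold lower in graft members (6.76 to 21.0). In distended members it was 25.3-fold lower, taking 3 counts over the summed members as the floor (exact lower limit 20.4). SELENOP, a selenium carrier, was 15.9-fold lower in graft members (5.36 to 77.6), with 3 against 222 UMIs, and 19.4-fold lower in distended members (9.34 to 48.6), with 7 against 405. APOE, an apolipoprotein, was 3.61-fold lower in graft members (2.81 to 4.71), where 37 of its 65 UMIs lay in 1 nucleus. With the same floor it was 22.3-fold lower in distended members (exact lower limit 17.9), at 0 against 199 UMIs. ART4, ADGRB3, GPM6A, CDO1, ATP10A, SLIT3, SPEF2, RASSF9, STXBP6, RORA, CDON and PDE3A were also among the 15 lowest. Of these 12, 10 were at 0 UMIs in the distended members of dog 1. In the graft RORA differed by less than its counting interval (1.10-fold lower, 0.509 to 2.72), and CDON and PDE3A were 1.52-fold and 1.36-fold lower.

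**Figure D3:**
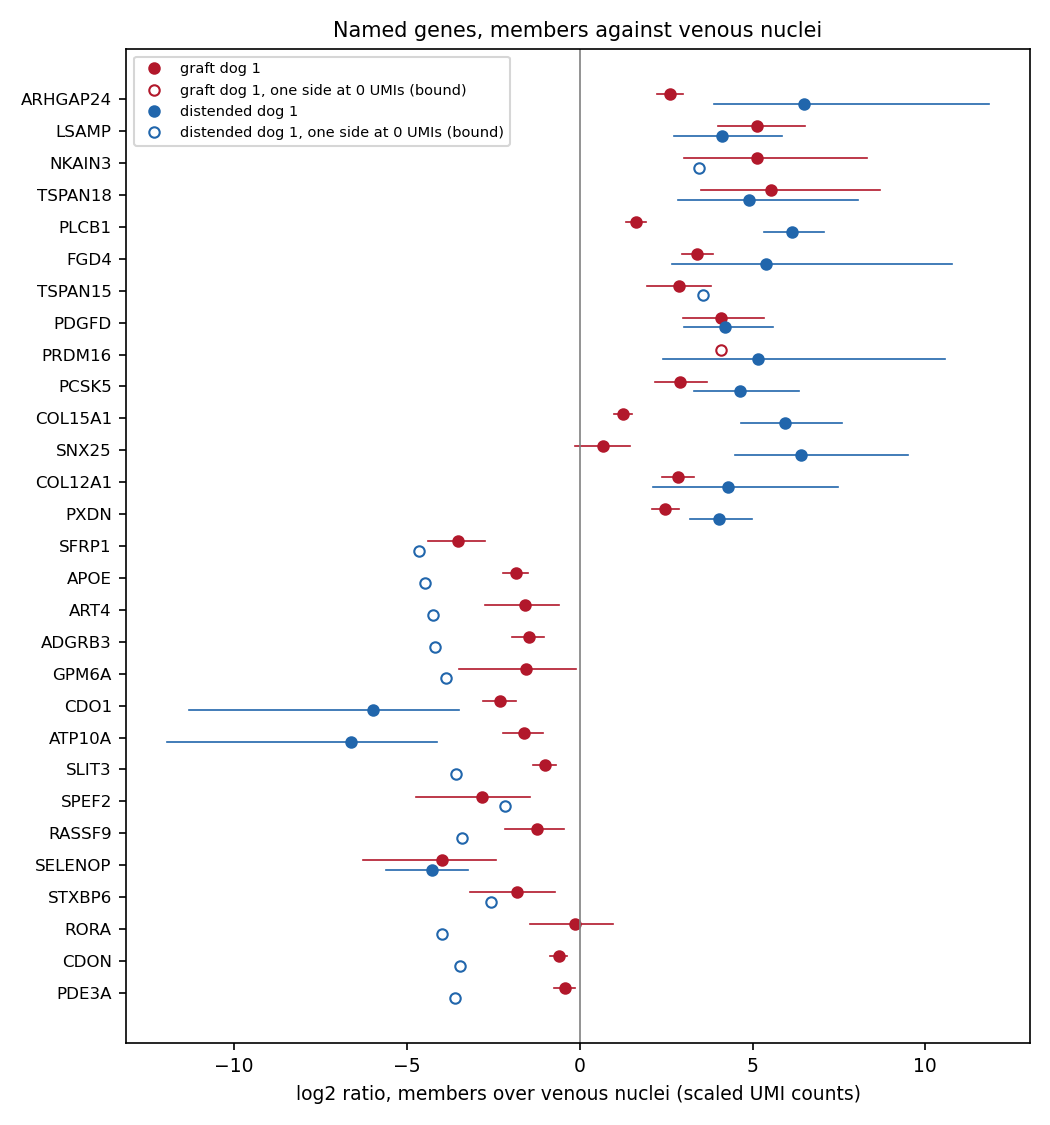
log2 ratio of scaled UMI counts, DACH1/NR5A2 nuclei over venous nuclei, for named genes among the 15 highest and 15 lowest in graft dog 1 and distended dog 1; lines are exact 95% counting intervals and open circles are bounds where 1 side had 0 UMIs. LSAMP stands at 35.3-fold in the graft and 17.3-fold in distended dog 1, while RORA and SNX25 separate clearly in distended dog 1 only.

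Among basement membrane genes, COL4A1, COL4A2 and COL15A1 were at least 2-fold higher in members in both libraries. In all, 3 of 20 such genes were higher and 1 lower in the graft, and 6 of 17 were higher and 3 lower in distended dog 1. COL4A1, which with COL4A2 forms the main collagen IV chain set, was 2.35-fold higher in the graft (2.01 to 2.74) and 7.59-fold higher in distended dog 1 (4.95 to 11.9). Its level was 6.82 per 10000 UMIs in graft members, 11.8 and 11.6 in members of distended dogs 1 and 2, and 2.36, 1.33, 0.369 and 0.186 in venous nuclei of the graft, distended dog 1 and control dogs 1 and 2. COL4A2 was 2.24-fold higher (2.01 to 2.50) in the graft and 6.06-fold higher (4.39 to 8.45) in distended dog 1. KDR, the main VEGF receptor, had 49 UMIs in graft members against 70 in venous nuclei (3.26-fold higher, 2.22 to 4.77) and 11 against 1 in distended dog 1 (32.8-fold, 4.76 to 1410). It had 0 UMIs in venous nuclei of both controls.

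Of 10 arterial markers with enough UMIs in the graft, 7 were at least 2-fold higher in members (CXCL12, DLL4, EFNB2, JAG1, JAG2, NOTCH4 and UNC5B) and BMX was lower, with a list median log2 ratio of 1.39. DLL4, the Notch ligand of arterial and tip cells, had 25 UMIs in graft members against 6 in graft venous nuclei (19.4-fold higher, 7.78 to 57.9) and 3 against 5 in distended dog 1 (1.79-fold, 0.278 to 9.19). NOTCH4 was 13.2-fold higher in the graft (4.97 to 40.9) and 16.4-fold higher in distended dog 1 (3.58 to 152). Of 21 VEGF receptor and tip cell genes, 11 were higher in graft members, among them PGF at 3.43-fold (2.46 to 4.76) and IGFBP3, with 34 against 5 UMIs, and 2 were lower. Among distended members, with fewer UMIs, 1 of 5 arterial markers was higher and 2 lower, and 2 of 9 VEGF genes were higher and 2 lower. Without the 13 members with neutrophil markers, 8 of 10 arterial markers and 8 of 19 VEGF genes were higher in the graft. With a defining sum of at least 5 in place of 3, 4 of 8 arterial markers were higher and 2 lower in the graft, and 8 of 19 VEGF genes were higher and 3 lower.

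Several venous markers were lower in the members, but the summed venous list was lower only in the graft. Its level was 103 per 10000 UMIs in graft members against 131 in graft venous nuclei. The levels were 83.3 against 74.4 in distended dog 1, and 94.3 in 5 members against 29.6 in 4 venous nuclei of distended dog 2. NR2F2, the transcription factor that sets venous identity, had 14 UMIs in graft members against 192 in graft venous nuclei (2.94-fold lower, 1.71 to 5.48) and 12 against 92 in distended dog 1 (2.57-fold lower, 1.40 to 5.16). Of the venous list 5 of 13 genes were at least 2-fold lower in graft members and 0 higher, with a median log2 ratio of -0.71 against -0.17 over all genes. In distended members 3 of 8 were lower and 0 higher, with a median of -0.36 against -0.26 over all genes, of which 26.9% were lower. ACKR1, the atypical chemokine receptor of venules, had 185 UMIs in graft members against 7520 in venous nuclei, 8.72-fold lower (7.54 to 10.1), and 142 of the 185 lay in 2 nuclei. The counts in distended dog 1 were 14 and 57 (1.37-fold lower, 0.752 to 2.66).

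Further lists leaned one way in distended dog 1. Over all genes, 9.93% were at least 2-fold higher and 26.9% lower in members there, and 5.87% and 17.7% in the graft. Of 12 genes of nitric oxide and cGMP signalling, 7 were at least 2-fold lower in distended members and PDE2A was higher. Among the lower was GUCY1A1, a subunit of soluble guanylyl cyclase, at 3.30-fold lower (2.14 to 5.31). In the graft 3 of 15 were lower, near the share over all genes, and 0 higher. Of 7 hypoxia and glycolysis genes, 5 were higher in distended members, with the glucose transporter SLC2A3 at 11.5-fold (4.88 to 31.3), against 1 higher and 5 lower of 21 in the graft. Without the deepest member of each library 3 of 6 were higher in distended members. NOS3, the endothelial nitric oxide synthase, differed by less than 2-fold in both, at 1.44-fold higher (1.07 to 1.92) in the graft and 0.941-fold (0.521 to 1.62) in distended dog 1. Whether these lists differ between the libraries was not tested.

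Only the graft (72) and distended dog 1 (30) held the 20 members needed for sums, so that the single contrast left was graft against distended vein of dog 1. It has no test, and no contrast with control vein could be made. Of 5112 genes with 20 or more UMIs over both sums, 1724 (33.7%) were at least 2-fold higher in graft members and 536 (10.5%) lower, with a median log2 ratio of 0.52. In venous nuclei the shares were 36.4% and 13.9% of 10332 genes, with a median of 0.48. Graft members held 373825 UMIs and distended members 67146, so that the limit of 20 UMIs admits more genes that are high in the graft, and list counts below are to be read against these shares.

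FSIP1, VCAN, TIMP1 and CSF3 were among the 12 named genes that were higher in graft members. FSIP1 had 600 UMIs in 44 graft members and 0 in members of both distended dogs. It was 40.8-fold higher with a floor of 3 counts (exact lower limit 33.1), and 390 UMIs were left without the 13 members with neutrophil markers. VCAN, a matrix proteoglycan, had 562 UMIs in 55 graft members and 0 in distended members of dog 1 (3 UMIs in dog 2). With this floor it was 38.2-fold higher (exact lower limit 31.0), and 135 UMIs were left without those 13 members. TIMP1, an inhibitor of matrix metalloproteinases, had 652 against 4 UMIs (33.3-fold, 12.9 to 122). Of the 652, 591 lay in 2 graft members, and the other 70 graft members held 61. The ratio was 17.6 without the deepest nucleus of each library and 19.0 without the 13 members with neutrophil markers, with 391 and 290 graft UMIs left. CSF3, the granulocyte growth factor, had 229 UMIs in 36 graft members against 0, and PTGS2, the inducible cyclooxygenase, had 170 in 29 against 0 in dog 1 and 1 in dog 2. SOD2 and MT2A, a mitochondrial superoxide dismutase and a metallothionein, had 175 and 216 UMIs against 0, with 138 of the 216 for MT2A in 1 nucleus. Without the 13 members with neutrophil markers, CSF3 kept 149, PTGS2 137, SOD2 106 and MT2A 59 UMIs. PLA2G4A, MMD, RPS18, RPS20 and RPS27A completed the 12. RPS27A had 178 UMIs among the 373825 of graft members and 4 among the 5194 of distended dog 2, which thus did not show a lower level. In distended dog 2, PLA2G4A had 2 UMIs, MMD and RPS18 had 1 each and RPS20 had 0. Ribosomal protein and metallothionein genes have near-identical copies, between which the counting could split reads. Without the deepest graft member, RPS18 had 72 of its 241 UMIs left. Venous nuclei had these 12 genes higher in the graft too, from 3.32-fold for PLA2G4A to 454-fold for TIMP1, apart from FSIP1, which had 2908 UMIs there and 0 in distended venous nuclei.

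ENPP2, which encodes autotaxin, was furthest in the other direction, with 1 UMI in graft members and 81 in 10 distended members of dog 1, 52 of them in 1 nucleus. It was 397-fold lower in graft members (69.2 to 15862). HDAC9, a class IIa histone deacetylase, had 3 against 50 UMIs (81.6-fold lower, 26.4 to 409), while venous nuclei had 14 and 1. MGLL, the monoacylglycerol lipase, had 4 against 46 UMIs (56.3-fold lower, 20.6 to 215). JUN, a subunit of the AP-1 factor, had 12 against 58 UMIs (23.7-fold lower, 12.6 to 48.4) and was 0.0302 times as high in graft as in distended venous nuclei. TCIM, RTP4, RNF213, RASGRF2, ACER2, GSE1, SNED1 and SYNDIG1 completed the list. ACER2 and HDAC9 had intervals that held 1 in venous nuclei, at ratios of 1.04 (0.475 to 2.71) and 1.83 (0.278 to 77.2). Members of distended dog 2 had 0 UMIs of ENPP2, HDAC9 and MGLL among only 5194 UMIs.

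**Figure D4:**
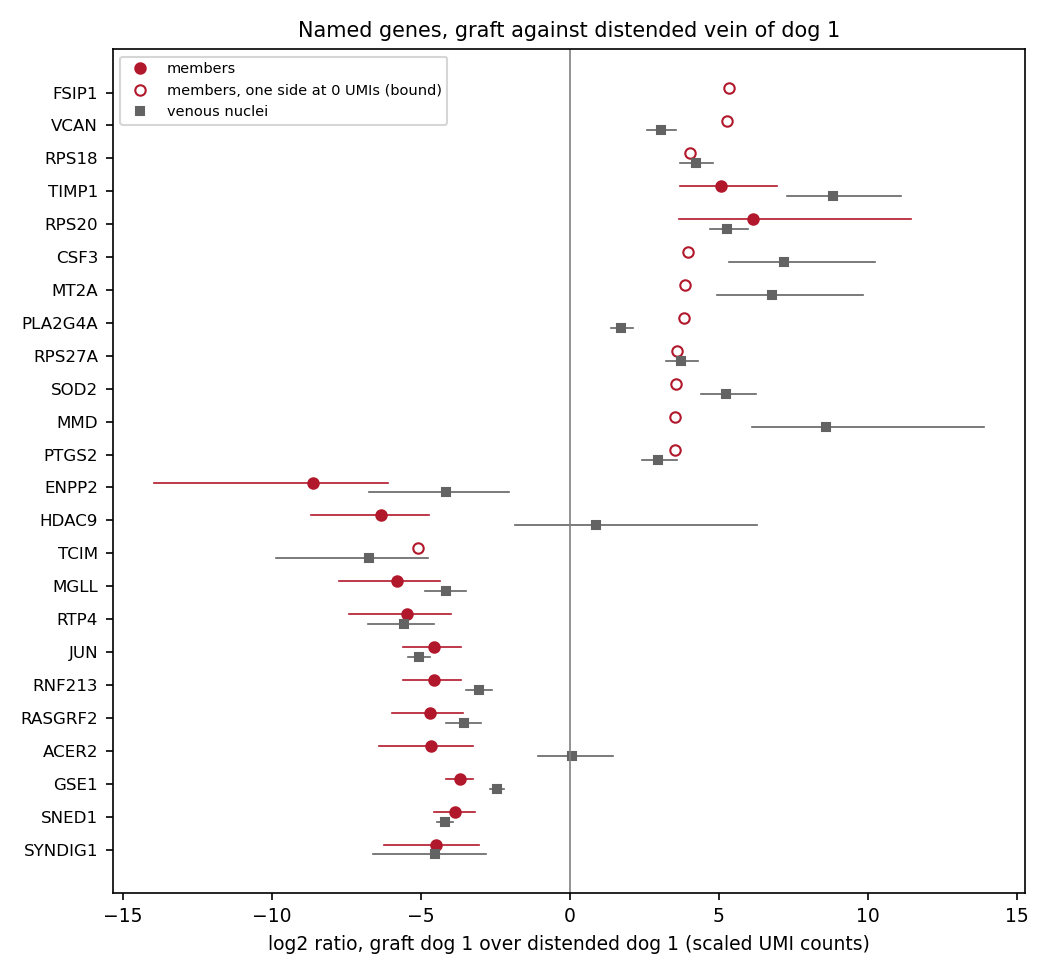
log2 ratio of scaled UMI counts, graft dog 1 over distended dog 1, for the 24 named genes in DACH1/NR5A2 nuclei (circles; open where 1 side had 0 UMIs and the point is a bound) and in venous nuclei (squares, drawn where both sides had UMIs); lines are exact 95% counting intervals. ENPP2 stands furthest down, 397-fold lower, and HDAC9 and ACER2 are the named genes for which the venous nuclei lie above 0 while the members lie below.

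Of 12 leukocyte adhesion genes, 7 were at least 2-fold higher in graft members and CD34 was lower, with a list median log2 ratio of 1.35. SELE and SELP, the selectins that capture rolling leukocytes, had 230 and 195 UMIs against 3 and 2, at 15.7-fold (5.29 to 76.5) and 19.9-fold (5.44 to 166). Without the deepest nucleus of each library they had 136 and 97 UMIs against 1 and 2, and SELP was then 8.75-fold higher. CXCL8, a neutrophil chemoattractant, had 137 UMIs against 0, of which 32 were left without the 13 members with neutrophil markers. Of 10 venous markers 6 were higher (ACKR1, CLU, FLRT2, SELE, SELP and VCAN) and NR2F2 was lower, with a median of 2.54; 5 were higher without those 13 members. ACKR1 was 2.70-fold higher in graft members (1.57 to 5.03) and 17.2-fold higher in graft venous nuclei (13.3 to 22.8). In venous nuclei 7 of 14 leukocyte adhesion genes were higher in the graft and 2 lower, with a median of 1.43. Of 13 venous markers there, 6 were higher and 2 lower, with a median of 0.82.

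Of 15 heat shock genes 8 were higher and 0 lower, with a median of 1.46, and HSPA5, an endoplasmic reticulum chaperone, had 197 UMIs, 118 of them in 1 nucleus, against 1 (40.2-fold, 7.14 to 1596; 14.3-fold without the deepest nucleus of each library). Of 11 cell cycle genes 8 were higher and 0 lower, with a median of 1.09. Both counts leaned on 1 graft nucleus of 55622 UMIs, which held 14.9% of the graft members' UMIs, the next deepest having 15286. Without the deepest nucleus of each library, 4 of 11 heat shock genes and 1 of 7 cell cycle genes with enough UMIs were higher. In venous nuclei 10 of 17 heat shock genes and 18 of 21 cell cycle genes were higher in the graft and 0 lower. Their medians there were 1.35 and 2.40.

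Several endothelial and early response genes were lower in graft members. Of 19 pan-endothelial markers 5 were at least 2-fold lower (CYYR1, FLI1, PTPRB, SHANK3 and VWF) and 0 higher, with a median of -0.46. VWF, the platelet-binding glycoprotein, had 146 UMIs in graft members against 168 in distended members, 5.64-fold lower (4.49 to 7.08), and PTPRB, the vascular endothelial phosphatase, had 190 against 266, 6.86-fold lower (5.67 to 8.31). Both were lower in graft venous nuclei as well, at ratios of 0.169 and 0.0950. Of 15 immediate early genes 8 were lower (DUSP1, EGR1, FOS, JUN, JUNB, JUND, NR4A2 and ZFP36) and 5 higher, and of 8 nuclear receptors 5 were lower, NR2F2 and PPARG among them. Of 18 basement membrane genes 4 were higher and 6 lower in graft members, with a median of -0.38. COL15A1 had 180 UMIs in graft members against 103 in distended members, a ratio of 0.357 (0.279 to 0.459), and 353 against 5 in venous nuclei, a ratio of 9.21 (3.91 to 28.5); the difference between these ratios was not tested. KLF4, a factor that responds to shear stress, had 14 UMIs against 32, 11.2-fold lower (5.81 to 22.7), while KLF2 had 65 against 11 (1.21-fold, 0.632 to 2.54; 0.776 without the deepest nucleus of each library). Among the defining genes, DACH1 had a ratio of 1.03 (0.719 to 1.52), NR5A2 0.660 (0.434 to 1.03) and ARHGEF28 0.758 (0.575 to 1.01), whereas NOSTRIN was 21.3-fold lower (13 to 36.6) and BTNL9 255-fold lower (43.7 to 10252); since these genes admitted the nuclei, their ratios are a description. NOSTRIN was also lower in graft venous nuclei, at 0.0536.

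The graft members differed by leading gene, a split chosen after the values were seen. By the defining gene with most UMIs, 36 were led by ARHGEF28, 19 by DACH1 and 11 by NR5A2, with 6 tied. Arterial markers reached 16.7 per 10000 UMIs in DACH1-led nuclei, 6.97 in NR5A2-led and 4.22 in ARHGEF28-led nuclei. They were detected in 17 of the 19 DACH1-led nuclei, and single nuclei held 20, 19 and 16 of the 109 arterial UMIs there. Some nuclei counted as DACH1-led by 2 UMIs against 1. GJA5, the connexin of arterial endothelium, had 8 UMIs in 4 of the 19 DACH1-led nuclei, 0 in the 11 NR5A2-led and 3 in the 36 ARHGEF28-led. ACKR1 had 2, 5 and 175 UMIs in the DACH1-led, NR5A2-led and ARHGEF28-led nuclei, and FSIP1 had 34, 53 and 498. Of the 175 ACKR1 UMIs, 142 lay in 2 of the 36 ARHGEF28-led nuclei and 33 in the other 34. The deeper ARHGEF28-led nuclei (median 5242 UMIs, against 2440 and 1828) held 246254 of the 373825 UMIs of the graft members. Among distended members of dog 1, NOSTRIN led 10 members, ARHGEF28 8, BTNL9 4 and DACH1 2, and none was led by NR5A2. The graft and distended members thus differed in which defining genes admitted them, and the part of this in the graft against distended ratios was not tested.

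**Figure D5:**
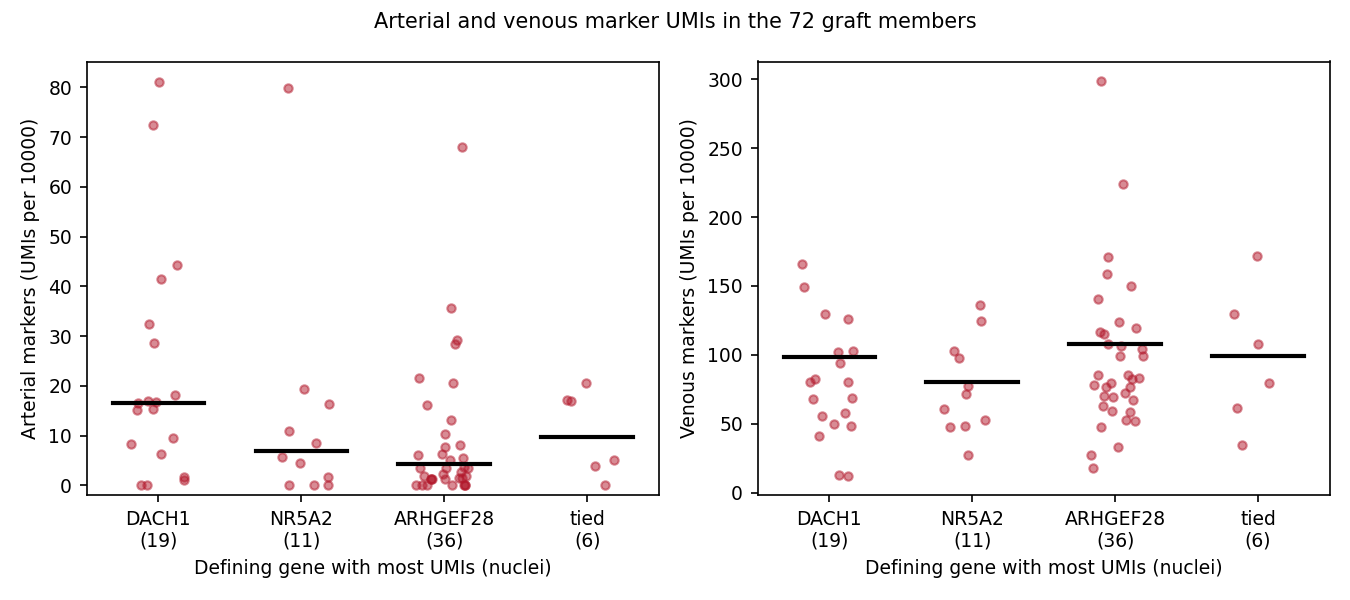
Arterial (left) and venous (right) marker UMIs per 10000 in each of the 72 graft members (points), grouped by the defining gene with most UMIs; black lines are the summed level of each group, with nuclei numbers in brackets. The arterial line stands at 16.7 for DACH1-led and 4.22 for ARHGEF28-led nuclei, and the points of all groups overlap.

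Against lymphatic nuclei of the same libraries, members were at least 2-fold higher in both for 34 of 1889 genes (1.8%) and lower for 52 (2.75%). In the graft alone 3.36% of 8531 genes were higher and 6.56% lower, and in distended dog 1 alone 20.7% of 1946 were higher and 20.9% lower. COL15A1 was 2.14-fold higher in the graft (1.71 to 2.67). It was 44.6-fold higher with a floor of 3 counts in distended dog 1 (exact lower limit 35.7), where lymphatic nuclei had 0 UMIs. KITLG, the ligand of KIT, had 228 UMIs in graft members against 102 in lymphatic nuclei (4.06-fold, 3.20 to 5.18) and 28 against 0 in distended dog 1. It was also higher than in venous nuclei, at 5.34-fold (4.40 to 6.49) in the graft and 2.09-fold (1.24 to 3.47) in distended dog 1. MCTP1, ARHGAP24, SCARB1, CADM1 and NKAIN3 were also higher. PLCE1, PIEZO2, PTPRD, RORA, ANKRD6, SEMA3A, PRKG1 and GPM6A were lower; PIEZO2, a stretch-gated channel, had 2 UMIs in graft members against 31 in lymphatic nuclei and 0 against 150 in distended dog 1. Against fibroblast nuclei, 283 of 4999 genes (5.66%) were at least 2-fold higher in members in both libraries and 363 (7.26%) lower. The shares were 16.5% higher and 12.8% lower in the graft alone, and 11.3% higher and 35.4% lower in distended dog 1 alone.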

How the data were processed

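Nuclei from snap-frozen vein were profiled with the 10x Chromium 3′ v3.1 chemistry, per the labels' protocols. The authors deposited UMI counts with no scaling; the headers of the files and the submitters' processing notes both name Cell Ranger 7.0.0. No genome build is named in the sources used here. No correction for transcripts from outside a nucleus was run, and the labels do not say that doublets were removed. Of 7391 deposited barcodes, 6868 with at least 100 detected features were kept; libraries held 410604 to 11302558 UMIs. A set of 24 features that name no gene (0.588% to 11.5% of UMIs) was left out, and 33883 of 35531 other features were found in a RefSeq table. Libraries shared 5 barcodes, 0 of them members. Scrublet (scanpy 1.11.5) marked 38 nuclei (0.553%) as doublets, 0 of them members; they were kept.

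The members and gene lists were chosen with earlier results of these data known. Counts were summed per library and class for classes of at least 20 nuclei and scaled with TMM (edgeR 4.0.16, R 4.3.3). A planned quasi-likelihood test needs a group of 2 libraries and was not run, since only 2 libraries reached 20 members; ratios with exact conditional 95% intervals (scipy 1.17.1) and a floor of 3 counts over a sum took its place. Values with the floor, also drawn as open circles, lie further from 1 than the exact limits nearest 1. Intervals cover counting error only, and UMI sums of few nuclei vary more. The ratios were run on counts simulated with counting error only. That run has no spread between nuclei, so it cannot show how well the intervals cover these data. The edgeR test was also run on simulated counts. Named genes were the defining genes, the 15 highest and 15 lowest by median log2 ratio against venous nuclei with the same direction in both libraries and at least 10 UMIs in each, 8 and 8 against lymphatic nuclei, and list members. For graft against distended vein they were the 12 in each direction whose interval stayed furthest from 1, a rule set after the data were seen in place of a p-value rank. Only features with a gene symbol were named, and some results are not reported here. Other named genes were picked from the lists after their values were seen. Alternatives covered scaling, the defining limit, the feature limit, doublets, dominant features, the UMI limit, and left-out nuclei and libraries.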

Additional observations from a re-analysis of the deposited data

Results flagged for a closer look

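For 9 list genes the graft over distended ratio of dog 1 lay on opposite sides of 1 in DACH1/NR5A2 nuclei and in venous nuclei, with both counting intervals clear of 1. Each side is 1 library, and the difference between the classes was not tested. Members of distended dog 2, with 5194 UMIs in all, held 12 of CDH13, 6 of COL4A1, 5 of PDE3A and 4 of COL15A1. They held 3 of LAMB1, 1 of ALCAM and 0 of JUNB, PRKG1 and SLC2A3. Whether dog 2 shows the same directions was not tested. COL4A1 had a ratio of 0.659 in the members and 2.13 in venous nuclei. CDH13, a cadherin without a cytoplasmic tail, had 0.703 in the members and 1.11 in venous nuclei. COL15A1 had 0.357 in the members and 9.21 in venous nuclei. SLC2A3, a glucose transporter, had 0.348 in the members and 2.22 in venous nuclei. ALCAM, a cell adhesion molecule, had 0.540 in the members, with 82 against 31 UMIs, and 1.69 in venous nuclei; without the deepest nucleus of each library 80 against 10 UMIs were left and the ratio in the members was 1.44, on the same side as in venous nuclei. JUNB, an AP-1 subunit, had 0.418 in the members and 1.80 in venous nuclei. LAMB1, a laminin chain, had 1.55 in the members, with an interval close to 1 (1.02 to 2.43), and 0.469 in venous nuclei. PRKG1, the cGMP-dependent kinase, had 50 UMIs in graft members against 0 in distended members, and a ratio of 0.632 in venous nuclei. In members it was 3.40-fold higher with a floor of 3 counts (exact lower limit 2.67). Of the 50 UMIs, 25 were left without the 13 members with neutrophil markers. PDE3A, a phosphodiesterase of cyclic nucleotides, had 102 UMIs in graft members against 0 in distended members of dog 1. It was 6.94-fold higher with the same floor (exact lower limit 5.54). Its ratio in venous nuclei was 0.765. The 5 PDE3A UMIs of distended dog 2 lay among 5194, against 102 among 373825 in graft members, so dog 2 did not show a lower level. COL15A1 and PDE3A were also named for their difference between members and venous nuclei, so that these values are not independent of that choice.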

How the results depend on the processing

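No paired analysis was possible because, for graft against distended vein, only dog 1 had libraries with 20 members and just 1 library stood on each side; members and other classes were compared within each library, without a test because the classes were defined from the same counts. With 1 library on each side DESeq2, the distended against control contrast, the 2 interactions and leaving out a library of the graft contrast were not run. A contrast with no minimum of UMIs was not run. RLE scaling put the median log2 ratio of graft against distended at 0.32 in place of 0.52 and turned DACH1 to -0.15; a minimum of 10 nuclei turned it to -0.13. Without the deepest nucleus of each library ALCAM turned to 0.53, in place of -0.89, and KLF2 to -0.37, in place of 0.27. Of the other values of the genes described in this contrast, 350 stayed within their counting interval or within 0.1 on the log2 scale. The limit of 200 features and the removal of Scrublet doublets left every member in. Each gave 48 of the 350, and those values could hardly move. Another 25 moved by more and kept their sign, and such a move can be towards 0. Without the 13 members with neutrophil markers, VCAN went from 5.26 to 3.56 and MT2A from 3.88 to 2.36. The values of genes described against venous nuclei were taken as the median log2 ratio of both libraries. Of these, 309 moved by less than 0.5 and 12 moved by more, towards or away from 0, and kept their sign. The feature limit and the removal of doublets, which left every member in, gave 46 of the 309 each. NOS3 turned to -0.032 at a defining sum of 5, in place of 0.21. The 1724 higher genes became 1133 at a defining sum of 5. At 50 UMIs the counts were 705 higher and 257 lower, and at 10 UMIs 828 were lower. An edgeR test that admitted the 5 nuclei of distended dog 2 (1 residual degree of freedom) called 55 genes higher and 16 lower of 3505, with 396 at an unadjusted p under 0.05. Against venous nuclei, with 1 library left out, 328 to 618 genes were higher and 890 to 1867 lower; the other library is then no longer required to show the same. The share of members, distended minus control, was 1.68 percentage points, 2.26 and 0.617 at defining sums of 2 and 5, -0.0761 when thinned at a sum of 3, and 1.36 to 2.01 with a library left out. Graft minus control was 2.60 points, 1.49 at a sum of 5, 0.685 and -0.0391 when thinned at sums of 1 and 3, 2.12 without the 13 members with neutrophil markers, and 2.53 to 2.66 with a control left out. The alternatives on UMI limits, left-out nuclei and 5 nuclei were chosen after seeing the data.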

Other observations

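Interferon-induced MX1 had 15 UMIs in distended members of dog 1 against 9 in venous nuclei (4.96-fold, 2.04 to 12.9), with 10 of the 15 in 1 nucleus, and 3 against 3 in the graft.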
